A study of Mus musculus with 6 samples.

Results

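Cytosolic ribosomal protein genes encode the proteins of the large (60S) and small (40S) ribosomal subunits. They were taken by symbol: Rpl or Rps followed by a number, together with Rplp0, Rplp1, Rplp2 and Rpsa, without Rps6k kinases and pseudogenes. Of 12393 genes with a probe set of their own, 48 met this rule, and the choice used no measured value. They comprised 22 core 60S genes, 20 core 40S genes and 6 paralogs, which are divergent relatives named after a core gene (Rpl3l, Rpl7l1, Rpl22l1, Rpl39l, Rps4l and Rps27l). A further 30 ribosomal protein symbols stood only on probe sets annotated to several genes, among them Rpl5, Rpl23, Rpl26 and Rplp1, and are not members here. All 6 arrays, 3 per group, measured RNA of 344SQ, a mouse lung tumour line that the labels describe as metastatic, KP and high in Zeb1. One group carried a control vector and the other inducibly expressed miR-34a. The material is described unevenly: some fields name cultured cells, while the series design and the miR-34a sample titles name tumours from mice, and no age, strain or separate animals are stated. The p-values therefore measure only the spread between these arrays, which may be technical. In them limma draws the variance of each gene towards a value shared by all genes.

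Ribosomal proteins are made in matching amounts, since each ribosome holds about 1 copy of most of them. Their messenger RNAs are abundant, and most begin with a C followed by a run of C and T bases, the terminal oligopyrimidine tract, through which mTOR signalling and the RNA-binding protein Larp1 set their translation. MYC raises the output of ribosome components in growing cells. Some ribosomal proteins also act outside the ribosome: RPL5 and RPL11 bind MDM2 and so stabilise p53, the factor that induces miR-34a. The comparison asks whether transcripts of this large co-regulated family differ where miR-34a was expressed.

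The expressed microRNA and the start sites of 9 members are shown first, because they are the agent of the comparison and the feature by which these genes are usually grouped. Mature miR-34a is given from RefSeq (GRCm38.p6, chr4:150068473-150068494, plus strand), with its seed, bases 2 to 8, in capitals.
mmu-miR-34a-5p: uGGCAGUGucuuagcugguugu
The start sites are 30-base windows of RefSeq promoters (GRCm38.p6), 15 bases before and 15 after the annotated start, 5′ to 3′ on the gene's strand. Capitals mark each run of a C followed by at least 4 bases that are C or T. Of the Rps27l starts, the upstream one is shown.
Rps6, core 40S, chr4:86857353-86857382, minus strand: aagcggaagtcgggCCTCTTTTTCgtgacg
Rps27, core 40S, chr3:90213634-90213663, minus strand: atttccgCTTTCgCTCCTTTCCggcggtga
Rpl14, core 60S, chr9:120571502-120571531, plus strand: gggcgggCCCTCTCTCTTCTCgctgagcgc
Rpl13a, core 60S, chr7:45128731-45128760, minus strand: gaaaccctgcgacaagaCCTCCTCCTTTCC
Rpl4, core 60S, chr9:64173372-64173401, plus strand: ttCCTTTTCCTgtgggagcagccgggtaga
Rpl22l1, paralog, chr3:28805493-28805522, plus strand: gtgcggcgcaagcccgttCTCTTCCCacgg
Rps27l, paralog, chr9:66946071-66946100, plus strand: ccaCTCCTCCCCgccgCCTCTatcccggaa
Rpl39l, paralog, chr16:10170213-10170242, plus strand: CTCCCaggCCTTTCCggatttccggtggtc
Rpl7l1, paralog, chr17:46782642-46782671, minus strand: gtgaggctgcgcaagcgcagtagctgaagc

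The promoter table held 42 of the 48 members. A run of this kind lay in the window of 28 of them on the gene's strand (66.7%), against 40.3% of all 27025 genes of the table. On the opposite strand 11 members had one (26.2%), against 44.6% of all genes. Among the 9887 genes of the table that were measured here, 43.2% had one on the gene's strand and 46.8% on the opposite strand. By class, 14 of 20 core 60S genes had the run, 10 of 17 core 40S genes and 4 of 5 paralogs. Rpl7l1 had none in its window. The match is a description of these letters only, and annotated starts can differ from the true start by some bases. The 28 genes with a run had a median log2 change between the groups of -0.0088, and the 14 without had -0.0006, so both medians lay close to 0.

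The median deposited intensity was 466.7 to 484.2 per array, and having 3 arrays in each group limits the precision. Vector 1 stood apart from the other vector arrays: 11.2% of all genes differed by more than 0.5 log2 units between vector 1 and the mean of vector 2 and vector 3. Of the members 1 did so, Rpl12. Epithelial marker genes were present at a summed log2 level of 16.07 to 16.30 in vector and 16.14 to 16.22 in miR-34a arrays, with 0 of 8 past the threshold (limma; 1 at an unadjusted p under 0.05). Fibroblast markers were present as well, at 13.70 to 15.43 in vector arrays and 15.10 to 15.60 in miR-34a arrays (1 of 10 higher). Their median log2 change was 0.60, with 9 above 0 and 1 below, and it was 0.09 without vector 1. Macrophage markers stood at 14.23 to 14.75 and 14.76 to 14.96 (1 of 10 higher, 1 lower). Their median log2 change was 0.50, with 8 above 0 and 2 below, and it was 0.21 without vector 1. Over all genes 6.5% were higher and 5.25% lower. RNA integrity was read from the Actb and Gapdh control probe sets, as the log2 signal at the 3′ end minus that at the 5′ end. For Actb it was 0.43 ± 0.15 in vector arrays and 0.57 ± 0.026 with miR-34a (SD, n = 3; two-sided exact permutation p = 0.4). The Gapdh difference was -0.0068 ± 0.066 and 0.11 ± 0.014 (SD, n = 3; two-sided exact permutation p = 0.1, which 3 against 3 cannot go below). The part of host cells and RNA integrity in the values below was not tested. In such bulk samples fewer cells of a type and less RNA per cell cannot be told apart.

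Of the 48 ribosomal protein genes, 1 was higher in miR-34a samples and 0 were lower at a limma adjusted p under 0.05. Over all 12393 genes 6.5% were higher and 5.25% lower, 11.7% in either direction. The single call was Rpl7l1, a paralog of the 60S gene Rpl7, at a log2 change of 0.33. None of the 42 core genes passed, and 4 of them had an unadjusted p under 0.05. Among all 48 members 6 had one, where 28.2% of all genes did.

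The changes of the members lay close to 0. Their median log2 change was -0.01, against 0.02 for all genes, and the range ran from -0.38 for Rpl14 to 0.49 for Rps27. A change within 0.1 of 0, or 7.18% in level, was found in 34 of 48 members (70.8%) and in 35.6% of all genes. The 95% interval of the change lay wholly within 0.5 of 0 for 42 members (87.5%) and for 63.6% of all genes, and its median half-width was 0.18 for the members. For these 42 genes the data therefore hold no change of 1.41-fold or more within the interval. By subunit, the median was -0.01 over the 22 core 60S genes and -0.02 over the 20 core 40S genes, and 17 and 16 of them lay within 0.1 of 0. The split of the members around 0 moved with the scaling, while their median stayed below 0: 20 members were above 0 and 28 below with the deposited values, 18 and 30 after quantile normalization, and 6 and 42 after centring each array on its median over the tested genes. Centring moved the median of all genes in the same way, from 0.02 to -0.07.

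**Figure D1:**
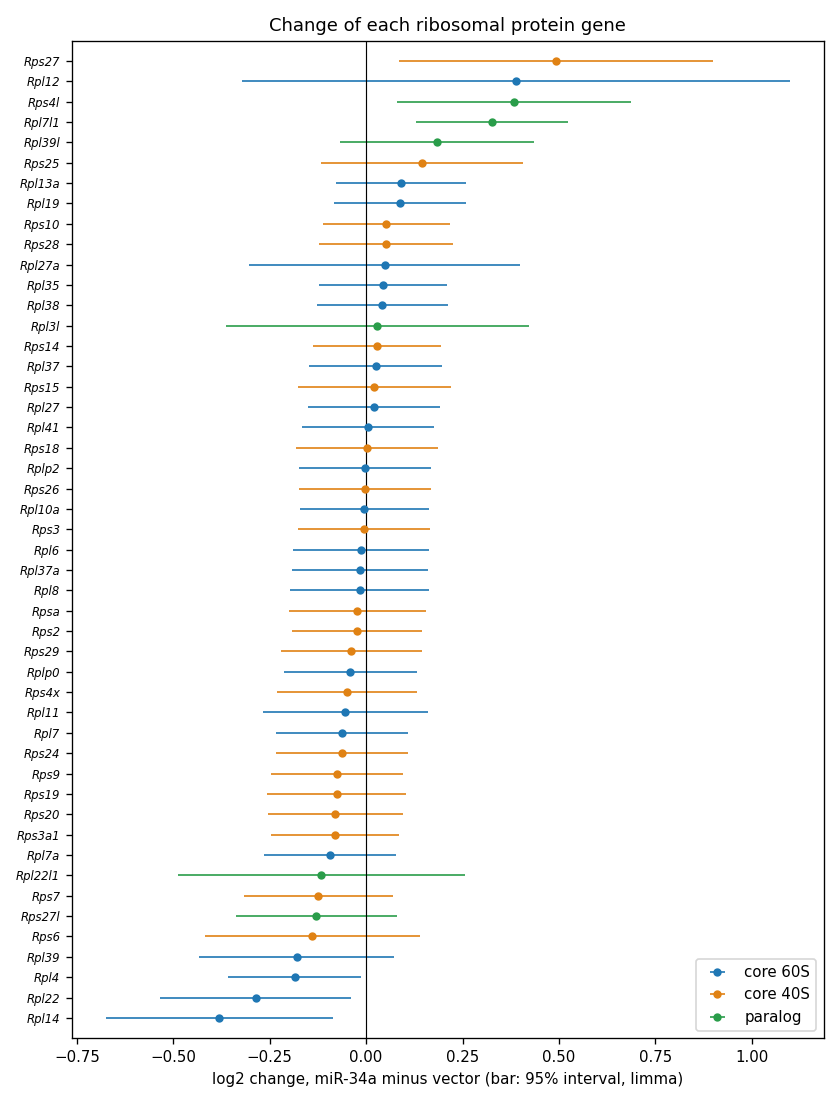
Log2 change (miR-34a minus vector, x axis) of each of the 48 ribosomal protein genes (y axis), with points coloured by class and bars for the 95% interval of limma. Most intervals span 0, and the changes run from -0.38 (Rpl14) to 0.49 (Rps27).

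The spread of the members differed with their level. A mean level of at least 13 in log2 units, near the upper end of the scale, was found for 36 members, and 88.9% of them had a change within 0.1 of 0. Among the 36, 0 passed in limma, and 2 had an unadjusted p under 0.05. Of the 285 genes at a level of at least 13, members included, 5.96% passed (3.51% higher and 2.46% lower). Of these 285 genes 43.5% had a change within 0.1 of 0. The median level was 14.235 in the 36 members and 13.419 in the 285 genes, so these sets were not matched in level. The threshold of 13 was chosen after the values were seen. In the 12 members below 13 the changes were wider, from -0.38 to 0.49, and 2 of them lay within 0.1 of 0. Level here is that of the probe set used, not of the gene. The 7 core genes among the 12 (Rpl12, Rpl14, Rpl27a, Rpl39, Rps6, Rps25 and Rps27) also had brighter probe sets. These were annotated together with other genes or pseudogenes and so were not used or tested. The brightest such set of each gene stood between -0.0675 (Rpl12) and -0.0056 (Rpl27a). The median standard deviation between vector arrays was 0.045 in the bright members and 0.14 in the dimmer ones, and 0.13 over all genes. The variance that limma shares over all genes widens the intervals of bright members. That 0 of them passed therefore depends in part on this model, and Rpl4 passed with a robust variance trend. Whether the brightest probe sets respond fully to a change in RNA was not tested.

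**Figure D2:**
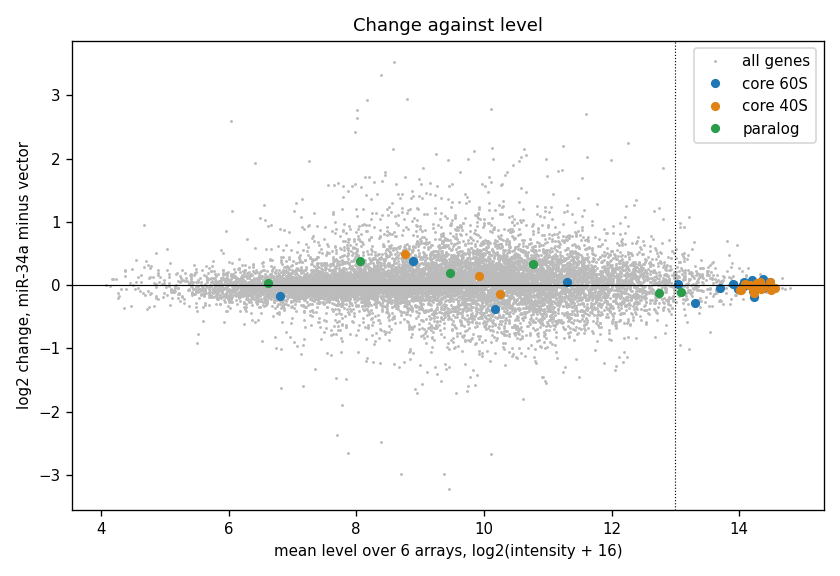
Log2 change (y axis) against mean level over the 6 arrays in log2(intensity + 16) (x axis), for all genes in grey and the ribosomal protein genes in colour by class. The dotted line marks a level of 13, to the right of which 36 members lie between -0.29 and 0.09.

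The proteins of the ribosomal stalk and other members used as reference genes illustrate the bright class. Rplp0, the scaffold of the stalk that recruits elongation factors, had intensities of 21815, 21678 and 20715 in the vector arrays and 21118, 20229 and 21067 in the miR-34a arrays. The groups overlapped, and its change was -0.04 ± 0.073 (SE; limma adjusted p = 0.767). Rplp2, its partner in the stalk, had a change of -0.0028, with a 95% interval of -0.17 to 0.17. Rpl13a, which also acts in the repression of inflammatory transcripts, had intensities of 20022, 20767 and 20869 in vector and 21850, 22087 and 21714 in miR-34a arrays. All its miR-34a values lay above all its vector values, yet the change was 0.09 ± 0.071 (limma adjusted p = 0.462), and it was -0.0046 after median centring. Rpl11, which binds Mdm2 when ribosome assembly is disturbed, had a change of -0.05, with a 95% interval of -0.27 to 0.16.

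Among core 40S genes, Rps6, the substrate of the S6 kinases, had log2 levels of 10.44, 10.36 and 10.17 in vector and 10.05, 10.38 and 10.12 in miR-34a arrays. The groups overlapped, and the change was -0.14 ± 0.118 (SE; limma adjusted p = 0.499). It ran from -0.24 to -0.07 when single arrays were omitted, lowest without miR-34a 2 and nearest 0 without miR-34a 1. With the mean of its probe sets it was -0.0016. Brighter probe sets annotated to Rps6 together with a pseudogene stood between -0.14 and -0.06, and a dim one at -0.29. These shared sets were not tested. Rps19, the gene most often mutated in Diamond-Blackfan anaemia, had a change of -0.08, and Rpsa, also known as the laminin receptor, one of -0.02. Rps4x, an X-linked 40S gene, stood at -0.05. Rps7, another Mdm2 binder, stood at -0.12 (95% interval -0.32 to 0.07). Its other probe set stood at -0.20, and one annotated to Rps7 together with another gene at -0.24. None of these 5 genes passed. Rpsa was at 0.0103 without vector 1 and 0.0127 with array weights.

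The largest changes of core genes below 0 were in 60S genes. Rpl14 had log2 levels of 10.64, 10.29 and 10.19 in vector and 10.00, 10.03 and 9.94 in miR-34a arrays. The groups did not overlap, and vector 1 was the highest array. Its change was -0.38 ± 0.125 (SE; limma adjusted p = 0.0957), and -0.25 without vector 1. The 5 brighter probe sets annotated to Rpl14 together with a pseudogene stood between -0.11 and -0.03. Rpl22, a 60S protein that is dispensable for general translation, had 13.49, 13.31 and 13.55 in vector and 13.08, 13.31 and 13.08 in miR-34a arrays. The highest miR-34a array reached into the vector range, the change was -0.29 ± 0.105 (limma adjusted p = 0.128), and the other Rpl22 probe set stood at 0.19, with -0.05 for the mean of both. Rpl4, a large 60S protein that lines the exit tunnel, had 14.32, 14.31 and 14.37 in vector and 14.16, 14.18 and 14.10 in miR-34a arrays. The groups did not overlap and the spread within each was small. Its change of -0.19 ± 0.073 did not pass (limma adjusted p = 0.151), and it did with a robust variance trend (adjusted p = 0.0388) or array weights (adjusted p = 0.0446). After median centring Rpl4 stood at -0.28. Rpl39, a small protein of the exit tunnel, stood at -0.18 on a dim probe set and at -0.08 without miR-34a 2. Rpl7, a 60S surface protein gene, stood at -0.06. Neither passed. A brighter probe set annotated to Rpl39 together with another gene stood at -0.07 and was not tested.

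Above 0, the core genes with the largest values were Rps27 and Rpl12, both on dim probe sets of their own. Rps27, a zinc-binding 40S protein, had log2 levels of 8.28, 8.38 and 8.90 in vector and 8.86, 9.15 and 9.02 in miR-34a arrays. Vector 3 lay within the miR-34a range. The change was 0.49 ± 0.172 (SE; limma adjusted p = 0.114), and 0.68 without vector 3, where it passed (adjusted p = 0.0383). With array weights it was 0.24 (limma adjusted p = 0.271). Rpl12, part of the stalk base, ran from 8.17 to 9.21 in vector and from 8.79 to 9.57 in miR-34a arrays. Both ranges were wide and overlapped, and the change of 0.39 ± 0.301 did not pass (limma adjusted p = 0.457). It was -0.0457 with array weights, 0.13 without vector 1, 0.65 without vector 3 and 0.14 without miR-34a 2. Brighter probe sets annotated to Rpl12 together with other genes stood at -0.13 and -0.07, and one annotated to Rps27 together with another gene at -0.03. These sets cannot be assigned to 1 gene and were not tested.

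The median size of the change, without its sign, was 0.16 in the paralogs, 0.046 in core 60S genes and 0.052 in core 40S genes. It was 0.18 in the 7 core genes whose used probe set lay below a level of 13, and 0.15 over all genes. The paralogs had a median level of 10.12, and the larger size was not particular to them. Rpl7l1, a nuclear relative of Rpl7 that takes part in assembly of the large subunit, had intensities of 1427, 1624 and 1576 in vector and 2007, 1929 and 1872 in miR-34a arrays. Every miR-34a value lay above every vector value, and vector 1 was the lowest array. Its vector arrays averaged 10.60 ± 0.097 and its miR-34a arrays 10.93 ± 0.050 on the log2 scale (SD, n = 3). It rose by 0.33 ± 0.084 (SE; 95% interval 0.13 to 0.52; limma adjusted p = 0.0497), or 1.25-fold. A second Rpl7l1 probe set stood at 0.32, close to the first. The call lay at the threshold: it was lost without any 1 array, at adjusted p-values of 0.0611 to 0.162, while the change stayed between 0.27 and 0.36.

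Rps4l, a relative of the X-linked Rps4x, had intensities of 189.9, 240.4 and 222.7 in vector and 245.5, 301.1 and 321.2 in miR-34a arrays. The groups did not overlap, with a narrow gap, and the change of 0.38 ± 0.129 did not pass (SE; limma adjusted p = 0.102). Rps27l, a p53-induced relative of Rps27, had log2 levels of 12.88, 12.66 and 12.88 in vector and 12.66, 12.68 and 12.69 in miR-34a arrays. The miR-34a values lay within 0.1 of each other, at the level of vector 2. The change was -0.13 ± 0.088 (limma adjusted p = 0.394), -0.20 without vector 2, and the other 2 Rps27l probe sets stood at -0.13 and -0.14. Rpl22l1, which can replace Rpl22 in the ribosome, had a change of -0.12, with vector arrays from 12.82 to 13.43 and miR-34a arrays from 12.92 to 13.13. It stood at 0.0253 without vector 3, -0.28 without vector 1 and -0.06 without miR-34a 2. Rpl39l, a relative of Rpl39 best known from the testis, had a change of 0.18 (limma adjusted p = 0.313). It stood at 0.11 without miR-34a 3 and at 0.10 after quantile normalization. Rpl3l, the striated muscle form of Rpl3, was dim at 6.61 ± 0.111 in vector and 6.64 ± 0.332 in miR-34a arrays (SD, n = 3), a change of 0.03. Of the 8 skeletal muscle markers, which include Rpl3l, 0 passed (limma; 3 had an unadjusted p under 0.05) and their summed level was 11.08 to 11.41 in vector and 11.19 to 12.61 in miR-34a arrays.

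**Figure D3:**
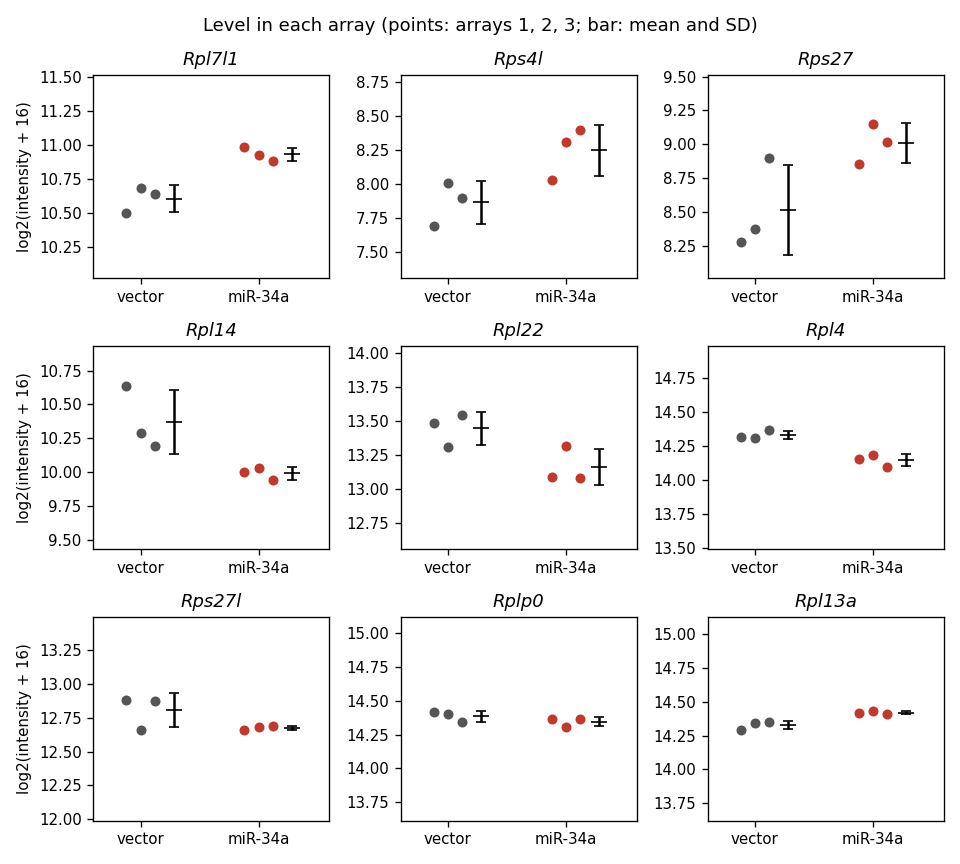
Log2(intensity + 16) (y axis, the same span in each panel) of 9 ribosomal protein genes in the 3 vector (grey) and 3 miR-34a (red) arrays, shown from array 1 at the left to array 3 at the right, with mean and SD beside them. Rpl7l1 lies higher in every miR-34a array, Rpl14 and Rpl4 lie lower, and Rps27l and Rplp0 overlap.

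The groups did not overlap in 14 of the 48 members (29.2%), 6 higher and 8 lower in miR-34a arrays. Over all genes the share was 34.9%, with 20.8% higher and 14% lower, so the members' share was near that of all genes. Higher were Rpl7l1, Rps4l, Rpl13a, Rpl19, Rpl35 and Rps10, and lower were Rpl14, Rpl4, Rpl7, Rpl7a, Rps3a1, Rps9, Rps20 and Rps24. Several of these separations were small. Rps3a1, a 40S protein gene, had log2 levels of 14.54, 14.56 and 14.53 in vector and 14.44, 14.48 and 14.47 in miR-34a arrays, a change of -0.08. Rps10, a protein gene of the 40S head, had 14.29, 14.31 and 14.31 against 14.34, 14.36 and 14.37, a change of 0.05. Both had small spreads within each group, and neither passed (limma adjusted p = 0.507 and 0.679). With the variance that limma shares over all genes, the SE was 0.070 for each, larger than its SD in either group. Rps3a1 and Rps10 were picked after their values were seen.

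The remaining members had changes within 0.1 of 0, except Rps25. Of core 60S genes these were Rpl6, Rpl7a, Rpl8, Rpl10a, Rpl19, Rpl27, Rpl27a, Rpl35, Rpl37, Rpl37a, Rpl38 and Rpl41, with changes from -0.09 for Rpl7a to 0.09 for Rpl19. Rpl27a was the least precise of them, with vector arrays from 10.96 to 11.44 and miR-34a arrays from 11.17 to 11.44. Its 95% interval ran from -0.30 to 0.40. A brighter probe set annotated to Rpl27a together with other genes stood at -0.0056 and was not tested. Of core 40S genes these were Rps2, Rps3, Rps3a1, Rps9, Rps10, Rps14, Rps15, Rps18, Rps20, Rps24, Rps25, Rps26, Rps28 and Rps29, from -0.08 for Rps3a1 to 0.14 for Rps25. Rps25, a 40S protein gene needed for initiation at some viral internal entry sites, had a dim probe set with overlapping groups (limma adjusted p = 0.450). A brighter probe set annotated to Rps25 together with other genes stood at -0.06 and was not tested. Rpl38, which is needed for the translation of certain Hox transcripts, stood at 0.04, and Rps14, a gene lost in the human 5q- syndrome, at 0.03. None of these genes passed on the probe set used for it.

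Across arrays the core genes lay close to their own means. The median deviation of the 22 core 60S genes from their own mean over the 6 arrays ran from -0.02 in miR-34a 1 to 0.03 in vector 1. That of the 20 core 40S genes ran from -0.04 in miR-34a 1 to 0.03 in vector 3. The paralogs ran from -0.24 in vector 1 to 0.18 in miR-34a 3. The median absolute gap between vector 1 and the mean of the other vector arrays was 0.038 for core 60S genes, 0.059 for core 40S genes and 0.17 for the paralogs, against 0.17 for all genes and 0.11 for genes at a level of at least 13. The low values rested on core genes with bright probe sets. Over the 7 core genes whose used probe set lay below a level of 13 the gap was 0.21. No test was made of these differences. Without vector 1, 0 members passed in either direction, and their median change was 0.0012.

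**Figure D4:**
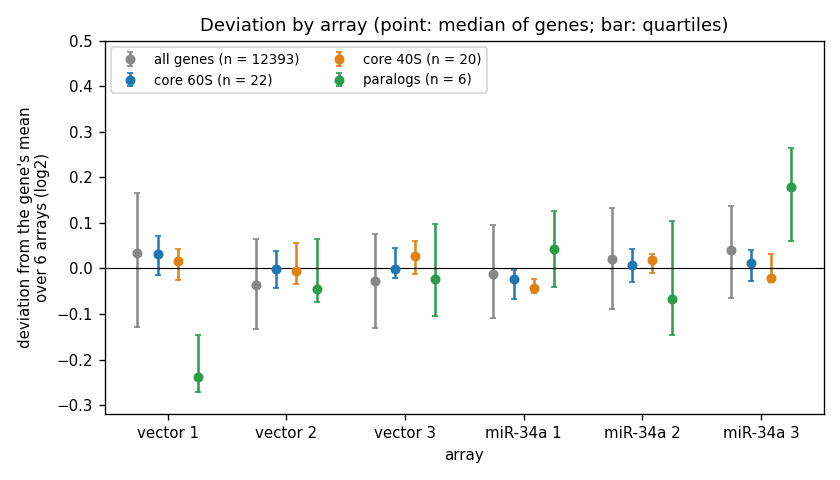
Median (point) and quartiles (bar) of each gene set's deviation from the gene's mean over 6 arrays, in log2 units (y axis), for each array (x axis). Medians of the core 60S and 40S genes stay within 0.05 of 0 in every array, and the paralogs are lowest in vector 1 at -0.24.

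Members with several probe sets gave a further reading. There were 23 such members, and 8 of them had probe sets of opposite sign. Of 52 probe sets that were not used for their gene, 2 passed when adjusted over all 20380 probe sets, where 13.7% did: the second Rpl7l1 set, and a dim Rps9 set. Rps9 encodes a 40S protein near the decoding site, and was picked out after its values were seen. Its dim set had log2 levels of 9.91, 9.85 and 9.88 in vector and 9.41, 9.45 and 9.51 in miR-34a arrays. It fell by 0.42 (limma adjusted p = 0.0153 over probe sets), and its brighter sets stood at -0.08 and 0.03. Another 102 probe sets carried the name of a ribosomal protein gene together with other genes or pseudogenes. Their changes had a median of -0.06 and ran from -0.73 to 0.41, with 29 above 0 and 73 below, and 67 lay within 0.1 of 0. Their genes cannot be told apart and they were not tested. Pseudogene copies are numerous in this family, so probe sets of single members may also take signal from them.

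Other genes of the pathway came from lists of ribosome assembly and translation. Of 55 measured ribosome biogenesis genes 0 were higher and 8 lower in limma, with a median of -0.07. The 8 were 14.5% of the list, where 5.25% of all genes were lower and 11.7% passed in either direction. Las1l, needed for processing of the ribosomal RNA spacer, had a change of -1.21 ± 0.106 (SE; limma adjusted p = 0.00322). The assembly factor gene Rrs1 had -0.56 ± 0.073, the nucleolin gene Ncl -0.48 ± 0.082 and the RNA helicase gene Ddx10 -0.52 ± 0.093. With the mean of its probe sets Ncl stood at -0.72. The others that fell were Npm1, Utp20, Ebna1bp2 and Ddx21, from -0.33 to -0.50. Leaving out 1 array gave 8 lower (vector 1, with 2 higher), 5 (vector 2), 2 (vector 3) and, for the miR-34a arrays in order, 2, 5 and 1. The call of Las1l was kept without any 1 array. Of 14 genes of RNA polymerase I transcription, which makes ribosomal RNA, 0 passed in limma (5 had an unadjusted p under 0.05), and their median was -0.05. Under the alternative fits 0 were higher and 0 to 3 lower. The count lower was 2 after quantile normalization or median centring and 3 with array weights.

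Of 32 initiation factor genes 4 were higher and 6 lower (31.2% in all, against 11.7% of all genes), with a median of -0.01. Eif3c, a subunit of the factor that binds the 40S subunit, changed by 0.45 ± 0.075 and Eif2b2, part of the exchange factor of eIF2, by 0.64 ± 0.125 (SE). Eif4e, the cap-binding protein gene, changed by -0.57 ± 0.108 and Eif1ax, a factor in start site scanning, by -0.46 ± 0.075. The choice of probe set moved these values: with the mean of a gene's probe sets Eif4e stood at -0.26 and no longer passed (limma adjusted p = 0.0578), and Eif1ax at -0.73. Where probe sets prone to cross-hybridisation were avoided, Eif2b2 stood at 0.29 and Eif3c at 0.28, and neither passed (limma adjusted p = 0.115 and 0.0515). These counts varied with single arrays: 5 higher and 6 lower passed when vector 1 was left out, 2 and 3 for vector 2, 2 and 1 for vector 3, and 0 and 3 for miR-34a 2. Leaving out miR-34a 1 or miR-34a 3 gave 0 in both directions. Of 12 elongation and termination factor genes 2 were lower (16.7%, where 5.25% of all genes were lower), the termination factor gene Gspt1 at -0.50 and the ribosome recycling gene Abce1 at -0.46, or -0.85 on the probe set taken where those prone to cross-hybridisation were avoided. Leaving out 1 array gave 3 lower and 1 higher (vector 1), 1 lower (vector 2 or vector 3), 2 (miR-34a 2) or 0 (miR-34a 1 or miR-34a 3). Fau, whose product includes a 40S protein fused to a ubiquitin-like one, lies outside the symbol rule and stood at 0.0022 (limma adjusted p = 0.989).

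Of 16 measured kinases and regulators of ribosomal protein messenger RNAs, 1 was higher and 1 lower, a share of 12.5% that is near the 11.7% of all genes. Rps6ka3, the kinase gene also called RSK2, had a change of -0.83 ± 0.071 and Tsc2, an inhibitor of mTOR signalling, one of 0.71 ± 0.087 (SE; limma adjusted p = 0.00294 and 0.00662). Both kept their calls without any 1 array, and Rps6ka3 stood at -0.50 with the mean of its probe sets. Leaving out vector 1 or vector 2 gave 2 lower. Larp1, Mtor and Myc, picked for their role described above, stood at -0.30, -0.52 and -0.08 and did not pass. Of 9 genes around Mdm2 and p53, 0 passed (limma; 3 had an unadjusted p under 0.05), with Mdm2 at -0.24. Cdkn2a in this list had log2 levels of 5.63, 9.91 and 10.61 in vector and 11.43 to 11.61 in miR-34a arrays, so vector 1 stood apart there. Of 11 genes of cycling cells 11 were lower, at a median of -0.69, with Mki67 at -1.29, Rrm2 at -1.17, Bub1 at -1.01 (-0.66 with the mean of its probe sets) and Ccna2 at -0.89. Leaving out 1 array gave 11 (vector 1), 9 (vector 2 or vector 3), 8 (miR-34a 2) or 5 (miR-34a 1 or miR-34a 3). These genes were seen to be lower in earlier results of the same arrays, so their count is no independent support.

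**Figure D5:**
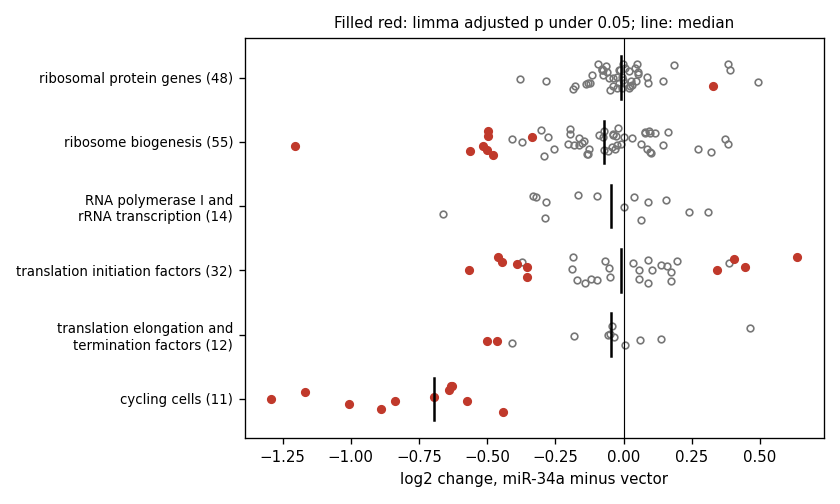
Log2 change (miR-34a minus vector, x axis) of the ribosomal protein genes and of 5 related gene lists (y axis, number of genes in parentheses). Filled red points passed a limma adjusted p under 0.05 and black lines mark medians, which run from -0.69 for cycling cells to -0.01 for ribosomal protein genes and initiation factors.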

How the data were processed

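Messenger RNA of 3 vector and 3 miR-34a samples was measured on Affymetrix arrays with biotin labelling, per the labels. The authors deposited linear intensities, and how these were summarised and normalized is not given in the sources used here. The values were used with no further scaling; centring each array on its median over the tested genes moved the median change of all genes from 0.02 to -0.07. No detection calls were used. Genes were named by the platform annotation, updated through Entrez identifiers (RefSeq, GRCm38.p6). Of 22690 probe sets, 20393 had 1 symbol; control sets were left out. For a gene with several probe sets, that of highest mean log2(intensity + 16) was used, a scale that understates changes of low genes. Genes were tested with limma 3.58.1 in R 4.3.3 (lmFit, eBayes, two-sided, Benjamini-Hochberg over 12393 genes at 0.05), which was tested on simulated data. Changes are miR-34a minus vector. Named members were those past the threshold, the 5 largest changes each way and a fixed set of Mdm2 binders, paralogs and reference genes; each list gave up to 4 called genes. Every other member is listed by name, and other genes named beyond this rule were picked for their role or after their values were seen. The members, lists and alternatives were chosen with earlier results of these data known. Of the remaining marker lists, those of T and NK, B, endothelial and erythroid cells had 0 members past the threshold in limma (3, 0, 2 and 0 at an unadjusted p under 0.05). In the list of 10 mast cell and neutrophil genes 4 mast cell genes were higher and the neutrophil gene S100a9 lower, 50% against 11.7% of all genes. The mast cell genes Kit and Ms4a2 stood at 0.03 and 0.02. The neutrophil genes S100a8, Mpo and Elane stood at -1.41, 0.07 and 0.11. None of these others passed. Alternatives were other scaling, pseudocounts, probe set choices, variance models, thresholds, a replicate block and leaving out each array. Python 3.11.15 with matplotlib 3.10.9 drew the figures.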

Additional observations from a re-analysis of the deposited data

How the results depend on the processing

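The count of 1 member higher became 0 under quantile normalization, median centring, a pseudocount of 1, a robust variance trend, the replicate block, a threshold of 0.01, without the paralogs or for the members at a level of at least 13 alone, the last chosen after seeing the data. It stayed at 1 under the other settings and was 0 to 1 when each array was left out; the 1 call without vector 3 was Rps27. The count of 0 members lower became 1 with the robust variance trend (Rpl4), 1 where probe sets with the suffix _x_at or _s_at were avoided (Rps9), 2 with array weights (Rpl4 and Rpl22) and 1 at a threshold of 0.1 (Rpl14). The median change of the members, -0.01, was -0.10 after median centring, and lay between -0.0247 and 0.0012 in the fits that omit 1 array. Among the named members, other than Rpl7l1, the sign turned for Rpl12 (-0.0457), Rplp2 (0.0234) and Rpsa (0.0127) with array weights and for Rpl13a (-0.0046) and Rpl3l (-0.0659) after median centring. In the fits that omit 1 array the values crossed 0 for Rpl3l (-0.0993 to 0.2169), Rplp2 (-0.0259 to 0.0222), Rpsa (-0.0532 to 0.0103) and Rpl22l1 (-0.2807 to 0.0253). The replicate numbers did not pair the arrays: deviations of same-numbered arrays correlated at -0.168, -0.0935 and -0.0812 across genes. With the replicate block, Rpl7l1 had a limma adjusted p of 0.134, and ribosome biogenesis genes numbered 2 lower and initiation factors 0. Over all genes the calls then numbered 250 higher and 272 lower, against 805 and 651.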
